A study of Homo sapiens with 9 samples.

Results

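The baseline transcriptome of MDA-MB-231 cells was described from the 3 libraries labelled as control, out of 9 libraries in the series. All 3 were chosen by their label alone, and no measured value entered the choice. MDA-MB-231 is a human breast cancer line of the triple-negative kind, which lacks oestrogen and progesterone receptors and does not overexpress ERBB2. The control cells received a lentivirus that expresses a scramble control RNA and grew in DMEM with 10% FBS. Selection with puromycin is described in the labels for the knockdown cells. The other 6 libraries belong to an APT1 knockdown and an APT1 overexpression and were left out here. The starting material was total RNA. The labels do not say that the 3 control libraries came from separate cultures, so the spread given below may be technical.

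Triple-negative breast cancer lines are often divided into basal-like and mesenchymal-like ones. Mesenchymal-like cells make the filament protein vimentin in place of a full set of epithelial junction proteins, and MDA-MB-231 is a widely used line of this kind. The line is known for an altered BRAF gene and for loss of the CDKN2A locus. It spreads to lung and bone in mice.

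Levels are given as TPM, a unit that divides reads by transcript length and scales each library to the same total, summed over the transcripts of a gene. A gene was called expressed when it had at least 1 TPM in each of the 3 libraries and silent when its mean was under 0.1 TPM. The libraries held 13175242, 12381931 and 15717854 estimated reads. A gene with 0 estimated reads may still have up to 3 reads per library, a limit of 0.228, 0.242 and 0.191 CPM, which scales reads to the library total and not to length. These limits cover counting error only.

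All 3 marker genes given for the line were expressed, as were 58.3% of all genes with a protein-coding transcript. VIM, which encodes vimentin (chr10:17228259-17237593, plus strand, GRCh38, GENCODE 29), had 2110, 2373 and 2317 TPM in controls 1, 2 and 3, a mean of 2267 ± 138 (SD, n = 3). It ranked 44th of 58219 genes, and 29th among protein-coding genes of the nuclear genome. CD44, the hyaluronan receptor (chr11:35138870-35232402, plus strand), had 756, 918 and 923 TPM, a mean of 866 ± 95.1 (SD, n = 3) and rank 152. The epidermal growth factor receptor EGFR (chr7:55019021-55211628, plus strand) had 45.3, 58.8 and 57.0 TPM, a mean of 53.7 ± 7.30 (SD, n = 3) and rank 3080. Control 1 was the lowest of the 3 libraries for each of these genes.

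The 2 hormone receptors were silent in the same libraries. ESR1, the oestrogen receptor, had 2, 1 and 1 estimated reads, or 0.0279 ± 0.00891 TPM (SD, n = 3). PGR, the progesterone receptor, had 0, 1 and 3 reads, or 0.0255 ± 0.0287 TPM (SD, n = 3). ERBB2 was not silent, with 27.5, 29.1 and 33.1 TPM. Its level was below that of EGFR in every library.

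Across the whole annotation, 13661 of 58219 genes were expressed and 28732 had 0 reads in all 3 libraries. Among the 19625 genes with a protein-coding transcript, 11435 were expressed, or 58.3%, and 3368 had 0 reads. Lists and families below can be read against that share. At the upper end, 1441 protein-coding genes reached 100 TPM in every library and 125 reached 1000 TPM. The number of genes holding 50% of all TPM was 313, 400 and 368.

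Genes of the mitochondrial genome stood at the top of the order. Its mRNAs encode subunits of the respiratory chain. All genes of that genome together took 16.5%, 13.4% and 14.5% of TPM, with control 1 the highest. Ranks 1 to 10 were all mitochondrial mRNAs. MT-ATP8 led with 23495 TPM on average, followed by MT-ATP6, MT-CO2, MT-CO1 and MT-CO3 at 15048, 13834, 13621 and 12917 TPM. MT-ATP8 is short and overlaps MT-ATP6, so reads of the pair cannot be told apart with certainty, and by reads it ranked 84th while MT-CO1 was first. By estimated reads the mitochondrial share was 7.21%, 5.65% and 6.10%. MT-ND6 was lowest of the mitochondrial mRNAs at 2987 ± 584 TPM (SD, n = 3), against 3110 ± 314 for MT-ND5, and their ranges overlapped.

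EEF1A1, the elongation factor that brings tRNA to the ribosome, was the most abundant nuclear mRNA, with 8681, 7759 and 8237 TPM. The cytoplasmic actins ACTG1 and ACTB followed at 5219 ± 27.3 and 5157 ± 146 TPM (SD, n = 3). Their ranges overlapped. Ribosomal protein genes made up 16 of the 25 most abundant nuclear protein-coding genes, led by RPL35 at 4574, RPS27 at 4150, RPL41 at 4122 and RPS24 at 3908 TPM. The other members of that group were FTL, the light chain of ferritin, NPM1, a nucleolar chaperone, PPIA, a prolyl isomerase, the actin-binding peptides TMSB4X and TMSB10, and the glycolytic enzyme GAPDH. As a family, the cytosolic ribosomal proteins held 14.05% ± 0.0528 of TPM (SD, n = 3), with 81 of 85 members expressed. The order depended on length correction: 6 of these 25 genes were also among the 25 with most reads, and RPS29 was at rank 23 by TPM and at rank 559 by reads.

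The printed start sites show a feature that many of the most abundant genes shared. Ribosomal and translation factor mRNAs are known to begin with a C followed by a run of pyrimidines, the TOP motif, which ties their translation to growth signals. RefSeq start sites (GRCh38.p14) were matched to 15256 of 19612 nuclear protein-coding genes. For each gene the start nearest to that of its most abundant transcript was used. Of the matched starts, 55.0% lay within 50 bases of that transcript's start. Genes at 0 TPM have no most abundant transcript, so the start used for them rests on no measured level. A start counted as TOP-like when it began with C and each of the next 4 bases was C or T on the gene's strand. That held for 54.3% of 92 genes above 1000 TPM, against 4.71% of all matched starts and 2.93% of those at 0 TPM. Among the genes above 1000 TPM it held for 39 of 54 ribosomal protein genes and 11 of 38 others. A match is a description of these letters only. The following windows of 30 bases run from 15 before the start to 15 from it, with the first 5 transcribed bases in capitals. They show 4 ribosomal protein genes with a TOP-like start and 3 other very abundant genes without one. All have the start within 10 bases of that of the main transcript. RPL27, a ribosomal protein gene not shown, had its start at a distance of 0 bases and was not TOP-like. EEF1A1 and TPT1, also not shown, had TOP-like starts 556 and 61 bases from those of their main transcripts.
RPL35 (chr9:124861943-124861972, minus strand): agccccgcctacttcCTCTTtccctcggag
RPS27 (chr1:153990747-153990776, plus strand): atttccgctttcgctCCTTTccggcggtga
RPS24 (chr10:78033848-78033877, plus strand): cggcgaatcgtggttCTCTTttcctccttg
RPS23 (chr5:82278340-82278369, minus strand): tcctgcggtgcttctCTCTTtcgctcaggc
ACTG1 (chr17:81512785-81512814, minus strand): gaggccgcggtcggtCTCAGtcgccgctgc
NPM1 (chr5:171387101-171387130, plus strand): ctccgagctctcttaGGGCGatgtccttgc
FTL (chr19:48965294-48965323, plus strand): tagccacgtcccctcGCAGTtcggcggtcc

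Mesenchymal genes were mostly expressed. Of 22 listed, 17 were expressed, and 7 of them reached 100 TPM in every library. After VIM came LGALS1, a secreted galectin, at 1208 ± 17.5 TPM (SD, n = 3). The receptor kinase AXL, the membrane linker MSN, the caveolar protein CAV1 and the calcium-binding S100A4 had 427, 410, 374 and 347 TPM. Fibronectin FN1 was at 38.6 TPM, with 29.9 in control 1 and 44.8 and 41.0 in the others. Several textbook mesenchymal genes were not expressed: N-cadherin CDH2 had 0.452 ± 0.145 TPM, and the means of COL1A2, THY1, MMP2 and COL3A1 were 0.368, 0.0908, 0.0525 and 0.0254 TPM.

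Epithelial genes were divided. Of 33 listed, 14 were expressed, 6 were silent and 13 lay between. E-cadherin CDH1, the core of the adherens junction, had 10.0, 9.25 and 6.01 reads, or 0.555, 1.39 and 0.383 TPM. The epithelial transcription factor GRHL2 and the splicing regulator ESRP1 had means of 0.310 and 0.307 TPM, and OVOL1, OVOL2 and RAB25 had 0 reads in every library. In the same cells the kinase MAPK13 was at 111 ± 6.55, the ETS factor EHF at 74.0 ± 4.25 and the tight junction protein CLDN4 at 64.6 ± 2.61 TPM (SD, n = 3). AP1M2, which sorts cargo to the basolateral membrane, was at 63.5 TPM and EPCAM at 10.1 TPM. CLDN4 had 62.4, 64.0 and 67.5 TPM, above every value of CDH1.

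**Figure D1:**
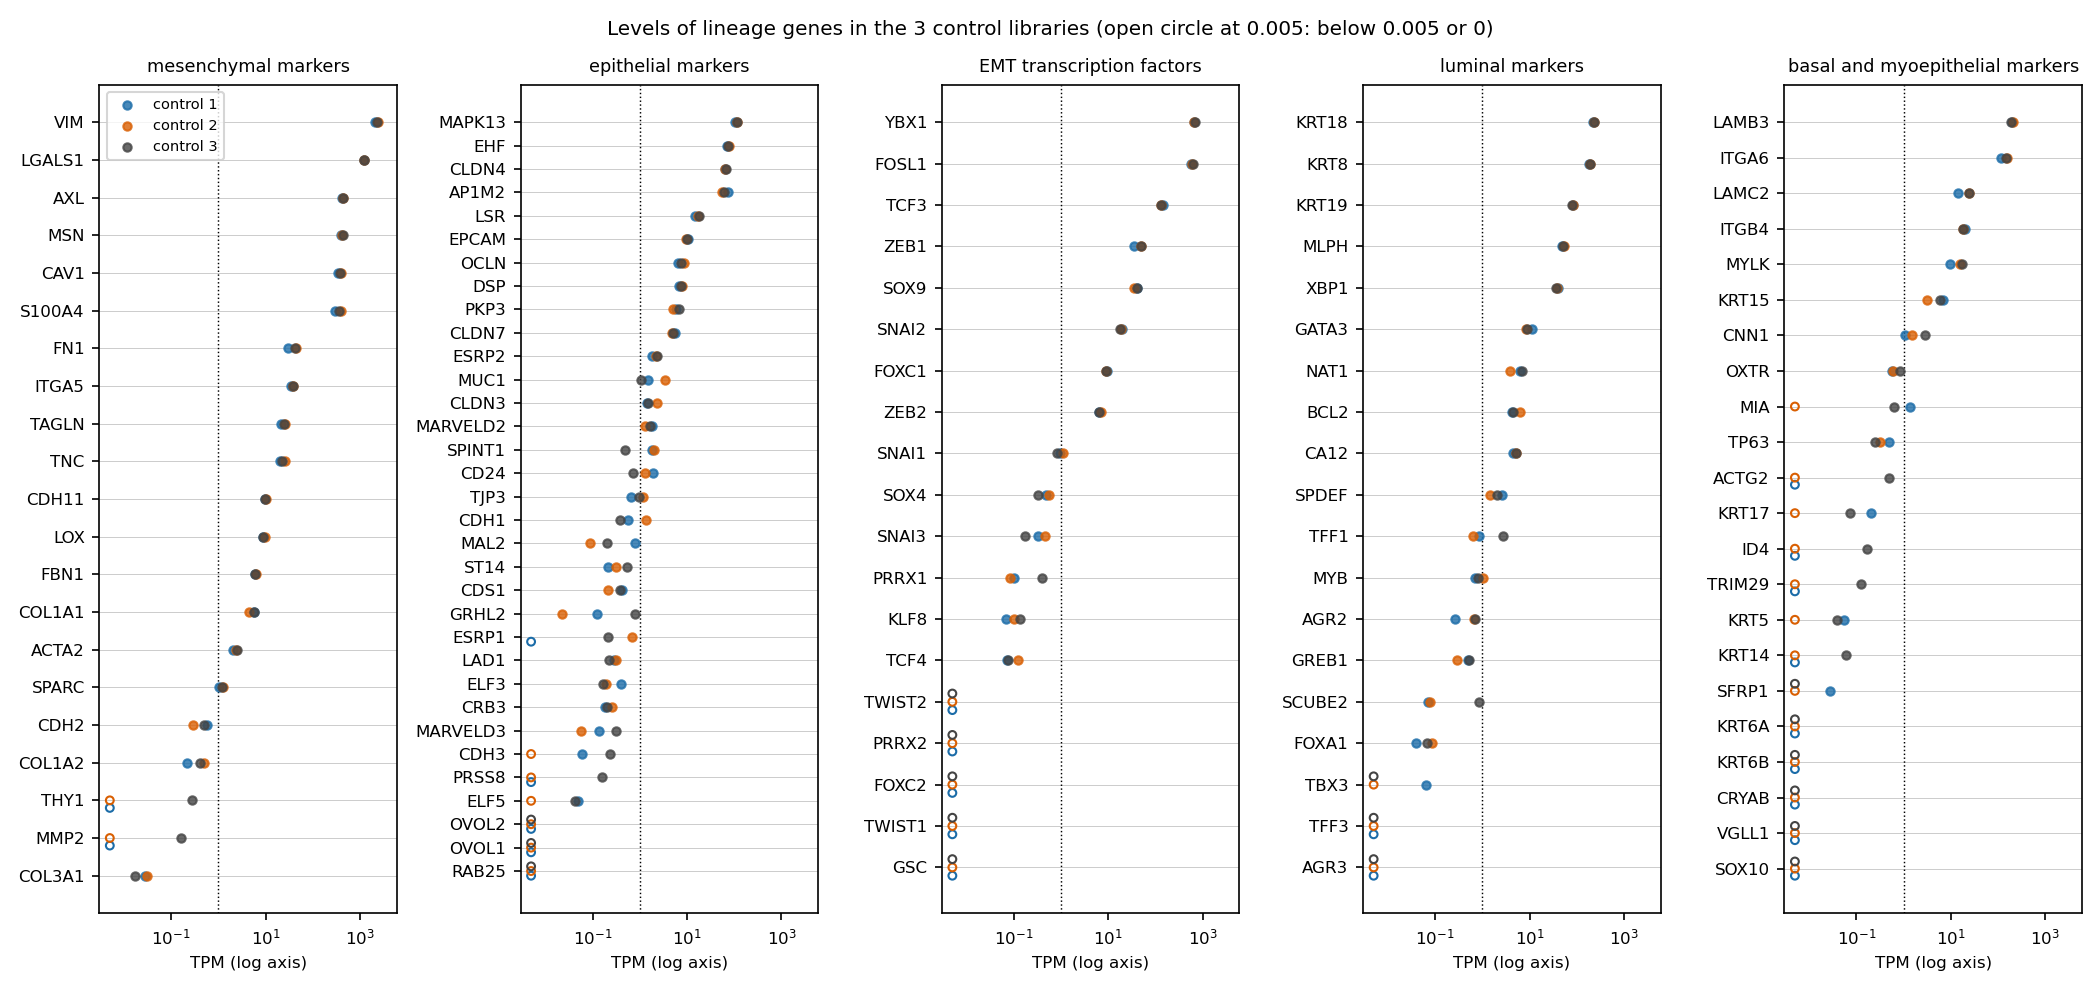
TPM of listed genes (log axis; a few listed genes are not shown) in control 1, 2 and 3, for mesenchymal, epithelial, EMT transcription factor, luminal and basal lists; open circles at the left mark values under 0.005 TPM or 0, and the dotted line marks 1 TPM. VIM sits at 2110 to 2373 TPM, while CDH1 lies between 0.383 and 1.39 and OVOL1, OVOL2 and RAB25 have no reads.

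Transcription factors that drive epithelial-mesenchymal transition were present as a subset. ZEB1, a repressor of epithelial genes, had 35.9, 48.5 and 48.6 TPM. SNAI2 had 19.3, 18.7 and 17.6 TPM, and FOXC1 and ZEB2 had 9.06 and 6.54 TPM on average. SNAI1 was at 0.959 ± 0.118 TPM. TWIST1, TWIST2, FOXC2, PRRX2 and GSC had 0 reads in all 3 libraries. Of 20 factors listed, 9 were expressed, and the highest were YBX1 at 664, FOSL1 at 593 and TCF3 at 135 TPM. FOSL1 is the AP-1 partner that RAS signalling induces, and it stood far above FOS at 1.46 and FOSB at 0.574 TPM. JUN was at 65.2 TPM, and the chromatin protein HMGA1 at 1389.5 TPM.

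Of 19 splicing regulators of epithelial and mesenchymal isoforms, 16 were expressed. QKI and RBFOX2, which favour mesenchymal isoforms, were at 81.3 ± 7.89 and 64.5 ± 5.44 TPM (SD, n = 3). ESRP2, which favours epithelial ones, was at 2.11 ± 0.222 TPM, and no library of ESRP1 reached 1 TPM. CD44 itself is a classic target, since ESRP proteins keep its variable exons in the mRNA. The GENCODE 29 model with most exons has 18, of which 9 are absent from the standard transcript ENST00000263398. CD44 transcripts that span this region without any variable exon held 43.0%, 43.9% and 41.2% of CD44 TPM. Those that span it with at least 1 variable exon held 19.8%, 23.3% and 21.9%. The remaining 37.2%, 32.8% and 36.9% came from models that do not span the region. The largest of these, ENST00000352818, has no variable exon and held 18.5%, 18.6% and 16.7%. Others do hold variable exons, such as ENST00000533222 with 4, at 1.55%, 1.88% and 2.50%. The spanning models alone therefore do not give the whole share of models with variable exons. Among models with variable exons, ENST00000434472 had the most TPM, with 1 such exon and 14.6% of the gene.

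Luminal genes were expressed in part. KRT18 was at 229 ± 6.01, KRT8 at 188 ± 8.18 and KRT19 at 82.1 ± 2.26 TPM (SD, n = 3). The luminal regulator GATA3 was at 9.45 TPM, while FOXA1, which opens chromatin for the oestrogen receptor, was at 0.0640 TPM and TFF3 and AGR3 had 0 reads. Of 19 luminal genes, 10 were expressed. Of the keratins in the basal list, KRT15 was expressed, with 6.98, 3.07 and 6.01 TPM. KRT5, KRT14 and KRT17 had means of 0.0313, 0.0203 and 0.0908 TPM, and KRT6A and KRT6B had 0 reads. The basal factors TP63 at 0.358 TPM and SOX10 at 0 reads were also not expressed. Of 22 basal genes, 7 were expressed, led by the laminin chain LAMB3 at 196 TPM and the integrin ITGA6 at 138 TPM.

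Stem-like breast cells are usually sorted as CD44 high and CD24 low. CD24 had a mean of 1.31 ± 0.61 TPM (SD, n = 3), against 866 for CD44. The integrin ITGB1 had 889 ± 47.9 TPM, and its range overlapped that of CD44. PROCR was at 35.1 and ALDH1A3 at 7.72 TPM, whereas ALDH1A1 and PROM1 had means of 0.0179 and 0.0213 TPM.

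Among receptor tyrosine kinases, 26 of 58 were expressed. AXL led with 411, 439 and 432 TPM, and its range did not overlap that of EPHA2, next at 122 ± 3.26 TPM (SD, n = 3). MET, FGFR1 and EGFR followed at 76.5, 62.0 and 53.7 TPM, each overlapping the next. FGFR2 was at 0.0609, KIT at 0.00601 and ERBB4 at 0.00882 TPM. The AXL ligand GAS6 was the top ligand at 123 ± 12.7 TPM, and its range overlapped that of the next, VEGFA at 109 TPM. The EGFR ligands HBEGF, TGFA, AREG and EREG were at 87.1, 33.7, 17.0 and 5.76 TPM, while EGF itself was at 0.927 TPM and HGF, the MET ligand, had 0 reads.

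Downstream of these receptors, all 32 genes listed for the RAS and MAP kinase pathway were expressed. Among RAS genes, HRAS was at 133 and NRAS at 63.2 TPM, and their ranges did not overlap. Genes that ERK activity is known to induce differed in level, with IER3 at 617 ± 33.4, PHLDA1 at 115 ± 5.69 and DUSP6 at 65.7 ± 3.70 TPM (SD, n = 3), and with EGR1 at 2.13 and FOS at 1.46 TPM.

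NR2F2, which encodes COUP-TFII, was highest among nuclear receptors with 158 ± 15.3 TPM (SD, n = 3). The next, ESRRA, was at 34.1 TPM, and the ranges did not overlap. The glucocorticoid receptor NR3C1 was at 29.5 TPM. Of 48 receptors, 22 were expressed and 15 were silent.

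All 30 proliferation genes were expressed and 18 reached 100 TPM in every library, with UBE2C at 448, RRM2 at 371, TOP2A at 287 and MKI67 at 118 TPM. Cyclin D1, CCND1, was at 304 ± 35.6 and MYC at 122 ± 7.37 TPM (SD, n = 3). The tumour suppressor RB1 was at 52.0 TPM. CDKN2A and CDKN2B, the inhibitors of cyclin D kinases, had 0 reads in every library, as did MYCN.

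Genes around CDKN2A were also low. Between HACD4 and DMRTA1 (chr9:20999515-22455740, GRCh38, GENCODE 29) lay 23 protein-coding genes, and none was expressed. Of these, 19 had 0 reads, among them most type I interferon genes, which are silent in most resting cells. MTAP, an enzyme of methionine salvage beside CDKN2A (chr9:21802543-21937651, plus strand), is made by nearly all cells, and here it had 12.9, 7.02 and 10.4 reads, or 0.188, 0.165 and 0.137 TPM. That was the highest level among protein-coding genes of the stretch. KLHL9, another widely made gene, had 0, 2 and 6 reads. On the near side FOCAD had 26.7, 34.0 and 34 reads, or 0.795, 3.74 and 1.12 TPM. MLLT3 had 179, 161 and 166 reads, or 8.77, 9.12 and 7.42 TPM. ELAVL2, a neuronal gene on the far side, had 0 reads.

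**Figure D2:**
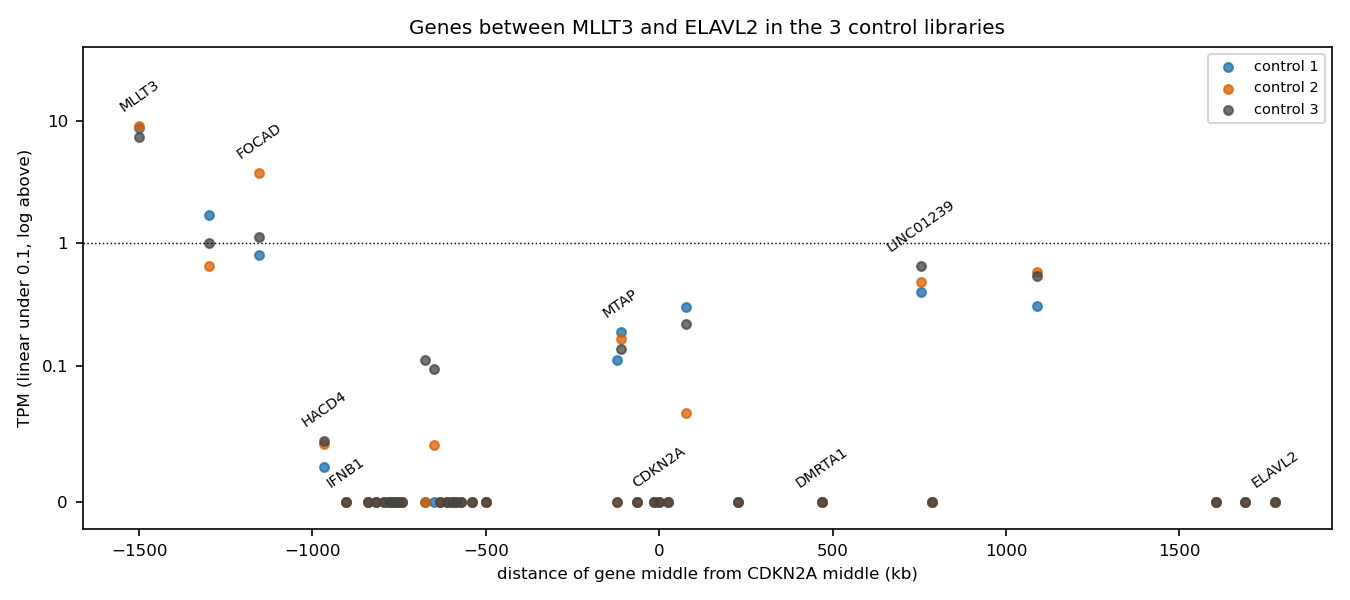
TPM in control 1, 2 and 3 (linear below 0.1, log above) of protein-coding, antisense and lincRNA genes against the distance of the gene middle from that of CDKN2A in kb. MLLT3 lies above 7 TPM in all 3 libraries, while CDKN2A, DMRTA1 and ELAVL2 sit at 0 and MTAP stays below 0.2.

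The microRNA gene MIR31 and its host MIR31HG, which lie in the same stretch, had 0 reads in all 3 libraries. Mature microRNAs are too short for a library of this kind, so their hosts were used. Of 1881 hairpin genes, 1698 had 0 reads, and 1 read on a hairpin was worth 5.24 to 6.42 TPM. MIR222HG, host of the miR-221 and miR-222 pair on chromosome X that is known from basal-like and mesenchymal breast cancer, had 35.5, 37.2 and 37.2 TPM. MIR100HG had 29.1, 30.9 and 25.8, MIR22HG 18.4, 22.2 and 20.1, and MIR17HG 10.3, 10.2 and 10.6 TPM. The hairpins of MIR200A, MIR200B, MIR429, MIR200C and MIR141, which restrain ZEB1 and ZEB2 in epithelial cells, had 0 reads, and MIR205HG had 1 read in control 3. The hairpins of MIR100, MIR22 and MIR17 were at 0 too, although their hosts were expressed, so a hairpin at 0 does not show that its gene was silent. The mature sequences (RefSeq, GRCh38.p14), 5′ to 3′ with the seed, bases 2 to 8, in capitals, show that the first 2 share a seed and that the miR-200 family has 2 seeds, AACACUG and AAUACUG. They are given first for hosts that were expressed, then for miR-31 and miR-205, whose hosts were not. The miR-200 family comes last, with hairpins at 0 reads and no host measured, so its expression is not known here.
hsa-miR-221-3p: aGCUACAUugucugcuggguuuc
hsa-miR-222-3p: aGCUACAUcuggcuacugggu
hsa-miR-100-5p: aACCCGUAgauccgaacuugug
hsa-miR-17-5p: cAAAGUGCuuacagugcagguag
hsa-miR-22-3p: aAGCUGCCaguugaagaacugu
hsa-miR-31-5p: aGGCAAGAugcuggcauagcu
hsa-miR-205-5p: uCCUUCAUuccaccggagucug
hsa-miR-200a-3p: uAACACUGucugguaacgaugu
hsa-miR-141-3p: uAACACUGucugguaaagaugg
hsa-miR-200b-3p: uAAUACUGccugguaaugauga
hsa-miR-200c-3p: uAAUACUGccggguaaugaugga
hsa-miR-429: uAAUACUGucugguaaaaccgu

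Of 44 matrix and protease genes, 37 were expressed. CYR61 was at 693 and CTGF at 232 TPM, both classic targets of YAP. Urokinase PLAU at 268 ± 16.6 and its receptor PLAUR at 211 ± 18.4 TPM (SD, n = 3) did not overlap in range, and the membrane protease MMP14 was at 201 TPM. MMP1 was at 21.3 TPM, whereas MMP9 was at 1.08 and MMP2 at 0.0525 TPM. Of genes named in the lung and bone metastasis signatures of sublines of this line, 18 of 24 were expressed, including CXCL1 at 137, ID1 at 94.5 and IL11 at 84.6 TPM. SPP1 had 0 reads, and VCAM1, PTGS2 and CXCR4 were at 0.0358, 0.476 and 0.948 TPM.

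Secreted cytokines included MIF at 537 ± 37.9, CXCL8 at 157 ± 18.3, CSF2 at 67.0 ± 14.8 and IL6 at 41.5 ± 3.49 TPM (SD, n = 3). Of 35 cytokines, 24 were expressed, while CCL2 had a mean of 0.0690 and CXCL12 of 0.00898 TPM. Class I antigen presentation was expressed, with B2M at 1231 TPM. Class II genes, more usual in immune cells, were expressed too, with CD74 at 356, 463 and 452 TPM, HLA-DRA at 135, 169 and 162 and their activator CIITA at 10.8, 15.8 and 11.6. Control 1 was lowest for all 3. Reads of HLA genes were assigned against reference alleles and are uncertain between members. The checkpoint ligand CD274 was at 19.8 TPM.

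Of 24 glycolysis genes, 22 were expressed, with GAPDH at 2562 and LDHA at 1353 TPM. The lactate exporter SLC16A3 had 150, 157 and 154 TPM, whereas its relative SLC16A1 had 0.905, 0.217 and 0.0984 TPM. All 36 cytoskeletal genes were expressed and together held 3.17% to 3.18% of TPM. The iron and stress list held 2.10% to 2.19% of TPM, with FTL at 3895 ± 499 and the metallothionein MT2A at 2206 ± 163 TPM (SD, n = 3).

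Genes of the system that the study addresses were expressed. LYPLA1, which encodes the depalmitoylating enzyme APT1, had 87.1, 92.7 and 80.5 TPM, and LYPLA2, which encodes APT2, had 45.7, 37.8 and 35.7 TPM. All 9 listed enzymes that remove palmitate were expressed, as were 20 of 24 DHHC palmitoyltransferases, led by ZDHHC16 at 87.8 TPM. Among 35 Notch and Wnt genes, 25 were expressed. The Wnt antagonist DKK1 was highest at 185 ± 3.44 TPM, followed by beta-catenin CTNNB1 at 131 ± 7.82 TPM (SD, n = 3). NOTCH2 and NOTCH1 were at 39.2 and 20.2 TPM and NUMB at 47.5 TPM. The Notch ligand JAG1 was at 10.0 TPM, while DLL1 and DLL4 were silent and DLL3 had 0 reads.

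Markers of other cell types were checked. Of 16 leukocyte markers, 4 were expressed, CD68 at 117, LAPTM5 at 44.8, LCP1 at 10.1 and CORO1A at 2.20 TPM, while PTPRC, CD3E, MS4A1, TYROBP and NKG7 had 0 reads. The list summed to 166 to 184 TPM. Of 12 endothelial markers, 5 were expressed, with ESAM at 43.4 and ROBO4 at 33.9 TPM, but CDH5 and VWF had means of 0.0293 and 0.00399 TPM. That list summed to 107 to 118 TPM. Fibroblast markers summed to 18.6 to 23.4 TPM, with 3 of 14 expressed, FBLN1 at 11, COL1A1 at 5.31 and PDGFRB at 2.78 TPM, and DCN and LUM silent. Liver, adipocyte and melanocyte lists each had 1 expressed member, SERPINA1, PPARG and MITF, and the neural list had TUBB3 and GFAP.

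The share of expressed members differed between gene families, from none to all. All 78 mitochondrial ribosomal protein genes were expressed, as were 46 of 48 proteasome genes and 414 of 510 ZNF genes. None of 363 olfactory receptor genes or 21 interferon genes was expressed. In the keratin-associated family, which makes hair proteins, 84 of 94 genes had 0 reads and KRTAP2-3 alone was expressed (chr17:41059240-41060114, minus strand), with 74.0, 63.3 and 60.2 TPM. Among keratins 8 of 55 were expressed. KRT7 had the highest mean, with 222, 255 and 257 TPM, and its range overlapped that of KRT18. HOX genes were sparse, with 4 of 39 expressed and HOXB9 highest at 6.89 TPM. Cancer-testis genes are normally limited to germ cells. In the GAGE, PAGE, XAGE and SSX families 3 of 32 genes were expressed, XAGE1B at 261, XAGE1A at 238 and PAGE5 at 13.6 TPM, and the reads of XAGE1A and XAGE1B, which are near copies, are split uncertainly. In the CT45, CT47, SPANX and CTAG families 2 of 35 were expressed, SPANXB1 at 78.8 and SPANXC at 3.91 TPM. Of 33 MAGE genes, a family not limited to cancer-testis genes, 6 were expressed. The highest were MAGEF1, MAGED2 and MAGED1 at 35.4, 33.8 and 16.5 TPM. The others were MAGEC2 at 2.78, MAGEE1 at 1.53 and MAGEA3 at 1.27 TPM. MAGEB2 and MAGEA6 had means of 0.885 and 0.581 TPM. Among 23 cadherins CDH24, CDH4 and CDH11 alone were expressed, at 13.8, 12.8 and 9.89 TPM. Of 19 S100 genes 9 were expressed, with S100A6 at 2179.9 and S100A11 at 1232 TPM the highest. Of 27 genes with an integrin symbol 12 were expressed, led by ITGB1 and by ITGA3 at 334 TPM. These counts include ITGBL1, an integrin-like gene that is not an integrin subunit, at 3.35 TPM.

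**Figure D3:**
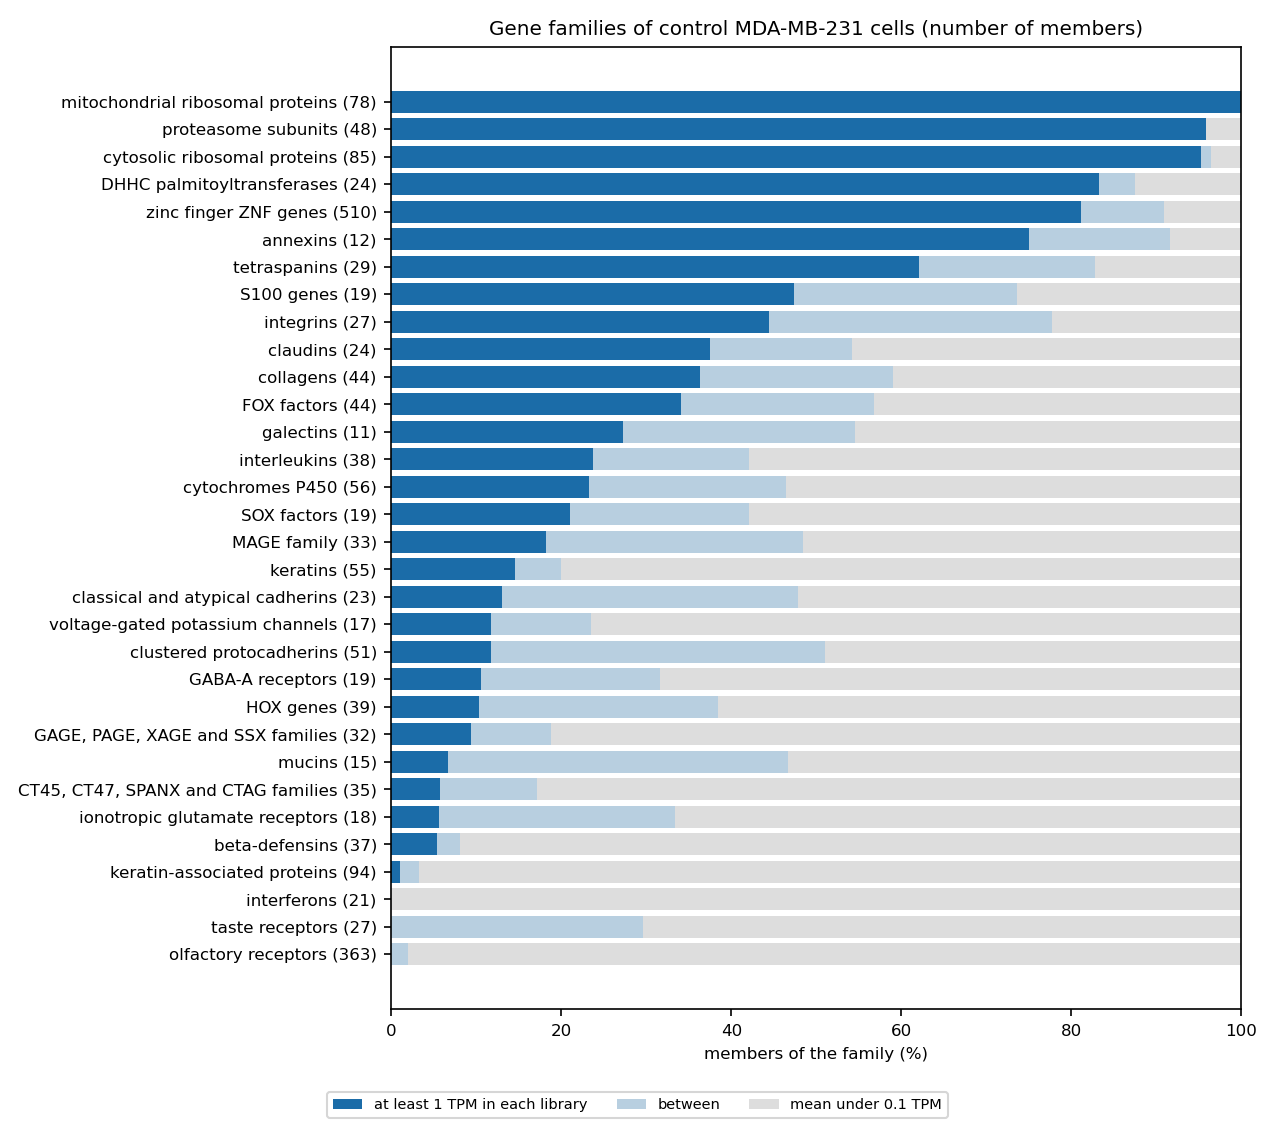
Share of members (%) of each protein-coding family that was expressed at 1 TPM or more in each of the 3 control libraries (dark), silent with a mean under 0.1 TPM (grey), or between (pale), with the number of members in brackets. All 78 mitochondrial ribosomal protein genes are dark, and none of the 363 olfactory receptor genes is.

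Silent and expressed genes differed in the composition of the sequence before their start. In RefSeq windows of 250 bases before to 50 after the start, genes at 0 TPM had a median of 5 CG pairs, with quartiles of 2 and 15, and genes between 10 and 100 TPM had 28, with quartiles of 21 and 36. The median over all windows was 23. The starts were those used for the TOP count, with the same limit for genes at 0 TPM. CG-rich starts, called CpG islands, are known as the usual start of genes active in many tissues. The letters TATAAA stood 45 to 15 bases before the start on the gene's strand in 10.5% of genes at 0 TPM, in 1.05% of genes at 10 to 100 TPM, in 3.10% at 100 to 1000 TPM, in 5.43% above 1000 TPM and in 3.81% of all. On either strand anywhere in the window TATAAA was found in 9.52% of all. Single genes can depart from the pattern of CG pairs, as AXL did. The genes printed do not stand for mesenchymal and epithelial genes as a whole. Windows of 20 epithelial markers had a median of 25 pairs, with quartiles of 12 and 31.5. Those of 13 mesenchymal markers had a median of 16, with quartiles of 8 and 26. Those of 11 basal markers, a list that holds KRT5, had a median of 7. The windows below hold the 120 bases before the start with CG pairs in capitals, for 2 abundant adhesion genes with many pairs, for AXL, which had few pairs at 427 TPM, and for 2 epithelial genes without expression, RAB25 and KRT5.
ITGB1 (chr10:32958231-32958350, minus strand): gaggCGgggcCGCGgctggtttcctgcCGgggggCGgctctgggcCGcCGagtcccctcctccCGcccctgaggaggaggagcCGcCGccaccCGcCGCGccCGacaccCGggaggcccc
MSN (chrX:65667534-65667653, plus strand): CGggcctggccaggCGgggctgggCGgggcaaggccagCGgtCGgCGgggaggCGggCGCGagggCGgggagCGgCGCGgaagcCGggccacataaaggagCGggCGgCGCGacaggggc
AXL (chr19:41219103-41219222, plus strand): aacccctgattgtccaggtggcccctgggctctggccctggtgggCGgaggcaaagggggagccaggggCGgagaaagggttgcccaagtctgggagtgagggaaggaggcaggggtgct
RAB25 (chr1:156061040-156061159, plus strand): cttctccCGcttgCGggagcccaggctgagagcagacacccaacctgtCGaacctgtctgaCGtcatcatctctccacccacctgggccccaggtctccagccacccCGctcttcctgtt
KRT5 (chr12:52520395-52520514, minus strand): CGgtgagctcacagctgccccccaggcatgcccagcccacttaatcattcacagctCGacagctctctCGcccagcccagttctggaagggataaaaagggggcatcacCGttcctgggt

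The full windows of 300 bases held 39 CG pairs for ITGB1, 29 for MSN, 7 for AXL, 9 for RAB25 and 7 for KRT5. Nothing follows from these counts about methylation, which was not measured.

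**Figure D4:**
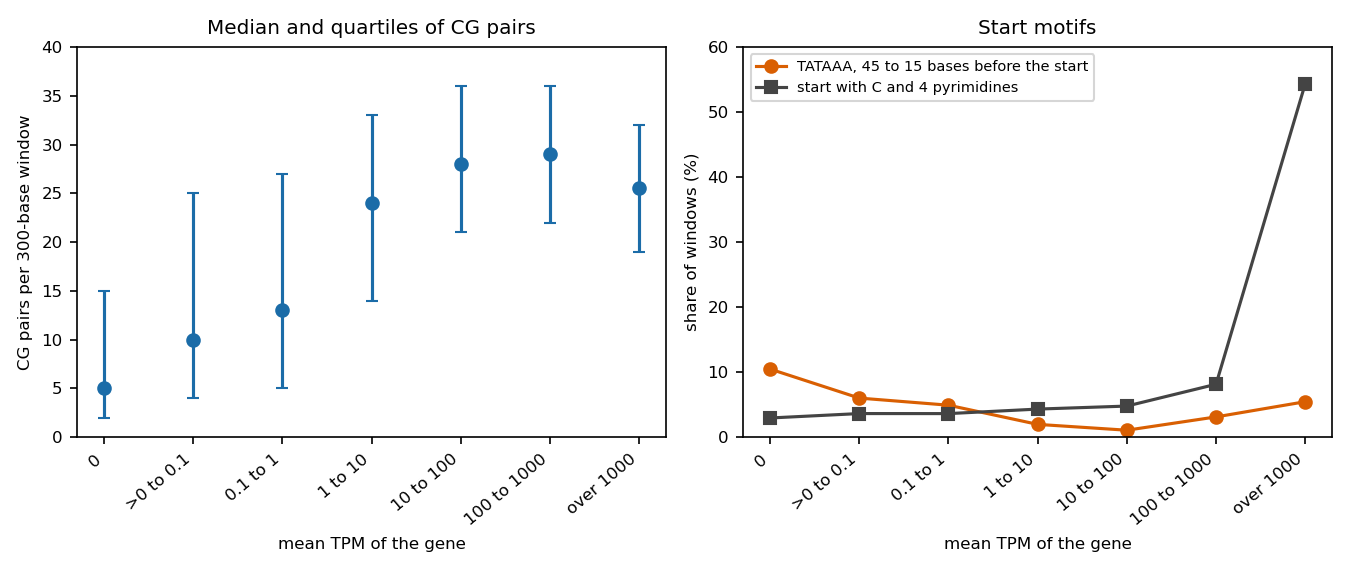
Left, median and quartiles of CG pairs per 300-base window around the RefSeq start, and right, share of windows (%) with TATAAA 45 to 15 bases before the start or with a first C and 4 pyrimidines, by mean TPM of the gene over the 3 control libraries. CG pairs have a median of 5 at 0 TPM and 28 at 10 to 100 TPM, and the pyrimidine start reaches 54.3% above 1000 TPM.

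By transcript type, protein-coding transcripts held 81.9%, 81.1% and 81.3% of TPM, a mean of 81.4% ± 0.401 (SD, n = 3). Models with a retained intron held 5.55% ± 0.208, processed transcripts 4.81% ± 0.115 and models marked for nonsense-mediated decay 3.09% ± 0.102. By estimated reads the protein-coding share was 89.5% and the retained intron share 3.32%. The median length was 1542 nt for protein-coding and 727 nt for retained intron models. LincRNA held 1.03% and antisense RNA 0.868% of TPM. Ribosomal RNA other than that of the mitochondrial genome held 0.0359% of TPM. All these shares describe the libraries and not the make-up of total RNA in the cell. The libraries were not stated to keep strand, so antisense genes and their partners cannot be told apart.

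**Figure D5:**
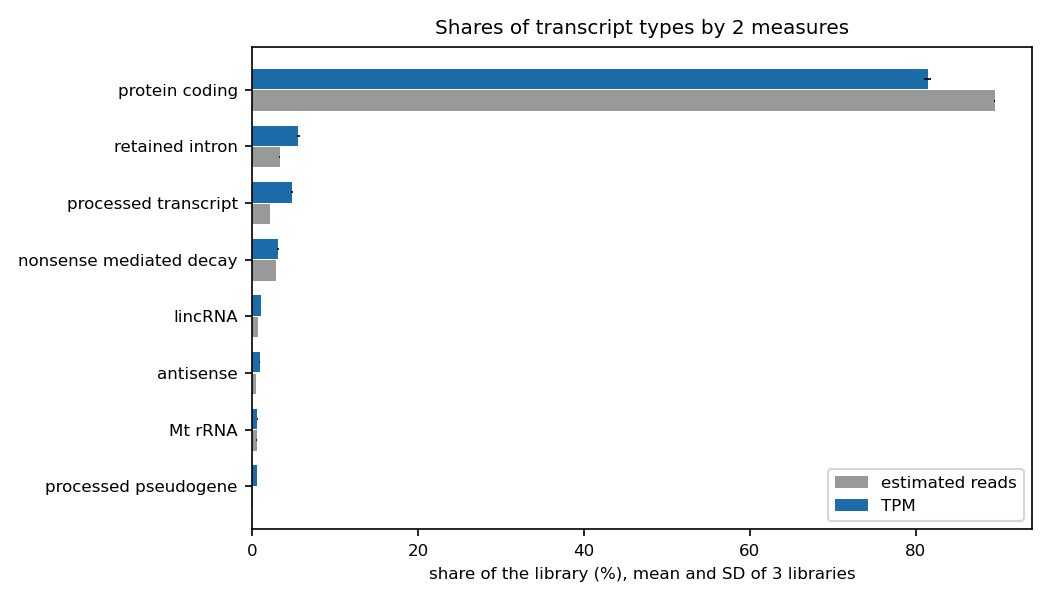
Mean share of the library (%) by transcript type, as TPM (blue) and as estimated reads (grey), with bars for the SD of the 3 control libraries. Protein-coding transcripts hold 81.4% of TPM and 89.5% of reads.

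The most abundant genes without a protein-coding transcript were the mitochondrial ribosomal RNA MT-RNR2 at 4896 TPM, MTATP6P1 at 2482, the mitochondrial tRNA MT-TP at 1722, LLNLF-96A1.1 at 1448, BCYRN1 at 1331, RP11-466H18.1 at 1153, RPL9P9 at 1079, MT-RNR1 at 1072, AC004057.1 at 989 and RP11-138I1.4 at 967. Several of these are copies of mitochondrial or ribosomal protein genes, such as MTATP6P1 and RPL9P9, and their reads cannot be separated from the parent gene with certainty. The order depended on length correction here too. By reads MT-RNR2 ranked 9th of all genes, but MT-TP ranked 7314th and BCYRN1 4894th. Other long non-coding RNAs included SNHG5 at 533, CYTOR at 384, the growth arrest transcript GAS5 at 359, MALAT1 at 279 and NEAT1 at 258 TPM. HOTAIR had 0 reads, and H19 was at 0.330 TPM.

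Main transcripts were examined for 8300 protein-coding genes with a mean of at least 10 TPM. The most abundant transcript took a median of 56.4% of the gene's TPM. It was a protein-coding model in 7541 genes, or 90.9%, a processed transcript in 300, a decay model in 232 and a retained intron model in 222. RPS28-004 held 89.3% of RPS28 and RPL14-003 95.5% of RPL14, both retained intron models, and B2M-013, a decay model, held 51.2% of B2M. Such splits between overlapping models are estimates. VIM was nearly one transcript, with 97.8% in ENST00000224237, and EGFR had 81.1% in ENST00000275493. TPM1 had 64.4% in ENST00000404484. FGFR1 was spread over many models, with at most 22.7% in any of them.

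The spread between libraries was measured gene by gene. Among 8881 genes with a mean of at least 10 TPM, the median coefficient of variation, the SD as a percentage of the mean, was 7.15%, with quartiles of 4.30% and 11.4%. Without control 1 the median was 4.57%, without control 2 it was 6.13% and without control 3 it was 6.94%. These medians, each from 2 libraries, compare with each other and not with 7.15%. Single libraries were compared over the 8484 of these genes with a mean of at least 100 reads. TPM lay under both other libraries by 1.5 times for 39 genes in control 1, 6 in control 2 and 11 in control 3. It lay over both by 1.5 times for 8, 17 and 3 genes. On CPM, 6, 0 and 6 genes lay under both others and 9, 0 and 0 over both. The median coefficient of variation of the 8881 genes on CPM was 5.07%. The biological coefficient of variation from edgeR, a measure that leaves out counting error, was 5.44% over 13633 genes. Log2 TPM of pairs of libraries correlated across the 13661 expressed genes with Pearson's r of 0.984 to 0.986, as a description, since genes are not independent replicates.

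The 12 genes with the largest variation were all short RNAs of at most 175 nt, with at most 12.2 reads in any library, such as MT-TD with 5, 1 and 0 reads and MIR93 with 8, 0 and 3. Among the 8484 genes with a mean of at least 100 reads, a set chosen after seeing the data, 2 kinds of variation appeared. For EXOC6, TPM was 8.47, 21.3 and 12.6 while the reads were 218, 261 and 310.2, and its CPM varied by 12.2% against 46.4% for TPM. For ISG15, an interferon-induced gene, both varied, with 621, 328 and 382 reads and 121, 71.8 and 65.2 TPM. IFIT1, also interferon-induced, had 24.4, 15.2 and 13.9 TPM, the histone gene HIST1H1C 129, 70.8 and 68.2, and the stress gene DDIT4 21.3, 13.6 and 12.1. Control 1 was highest for these 4. LCN2, a secreted iron-binding protein, had 21.3, 54.8 and 48.9 TPM, lowest in control 1. By TPM the steadiest genes included UBE2D3, with 368 TPM in every library, and LDHA, with 1353, 1351 and 1355. On CPM, UBE2D3 varied by 3.76% and LDHA by 7.08%, against a median of 4.88% for the 8484 genes.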

How the data were processed

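The authors sequenced libraries made from total RNA of the 3 control samples. FastQC, Salmon and DESeq2 and the build GRCh38.p10 are named in the submitters' processing notes; tool versions are not given in the sources used here. The deposited Salmon files give estimated counts (expected counts) and TPM per transcript. A gene table, also deposited, gives a scaled signal whose scaling is not given in the sources used here, and it served as an alternative only. TPM and estimated counts were summed per gene. Members of gene families were taken by symbol among genes with a protein-coding transcript. Counts were rounded for edgeR 4.0.16 (R 4.3.3), used only for the spread with an intercept-only design and tested on simulated data. Gene positions came from GENCODE 29 and sequences from RefSeq. No groups were compared, so no test was run.

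Named by the rule were VIM, CD44, EGFR, LYPLA1, LYPLA2, ESR1, PGR and ERBB2, genes among the 25 highest nuclear protein-coding ones, the mitochondrial mRNAs, the 10 highest genes without a protein-coding transcript, up to 8 highest members of each list, members under 1 TPM of lists of lineage markers, receptors and tumour suppressors, the 12 genes with the largest variation, and transcripts with at least 5% of a gene. Further genes named were picked with their values known. The members and lists were chosen with earlier results of these data known. Depth was 12381931 to 15717854 estimated reads per library. Alternatives were other thresholds, reads in place of TPM, the scaled table, leaving out mitochondrial genes, and leaving out each library. Python 3.11.15, pandas 2.3.3 and matplotlib 3.10.9 were used. Some genes that the rule names are not reported here.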

Additional observations from a re-analysis of the deposited data

How the results depend on the processing

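Depth limits statements on genes of a few reads, and TPM of RNAs under 200 nt rests on very few reads. Counting reads in place of TPM gave 19.1% in the 100 most abundant genes (33.9% by TPM), 89.5% from protein-coding transcripts (81.4%), 6.32% from mitochondrial genome genes (14.8%) and a median variation of 5.07% (7.15%). Leaving out mitochondrial genome genes gave 25.1% in the 100 most abundant genes, and leaving out transcripts under 200 nt gave 82.4% from protein-coding ones. The median variation was 10.7% for genes of at least 1 TPM, 31.2% for every detected gene and 6.63% in the deposited scaled table. Of 28732 genes with 0 reads, 3368 were protein-coding. Among the 25 most abundant nuclear protein-coding genes, 6 were shared with the order by reads and 6 with that of the scaled table. The number of expressed genes ranged from 10287 at 5 TPM to 15517 for a mean of 1 TPM, and it was 12723 where 10 reads in each library were also needed, a setting chosen after seeing the data. Leaving out each library in turn gave 14017 to 14186 expressed genes, 30353 to 31141 genes with 0 reads, 32.9% to 34.7% in the top 100, 81.2% to 81.6% protein-coding, 13.9% to 15.5% mitochondrial, a median variation of 4.57% to 6.94% and 24 of the 25 genes. Without control 1 the median variation was 4.57%, and without control 2 it was 6.13%. Medians with a library left out compare with each other and not with the value over all libraries. For 10 single genes, 9 of 40 alternatives moved the mean by over 1 SD; leaving out mitochondrial genes and rescaling multiplies every level by 1.15 to 1.20. Pseudocounts for ratios were not run, since no ratio is reported. No paired analysis was possible because only 1 group is described and no groups are compared.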
